A study of Caenorhabditis elegans with 12 samples.

Results

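A set of 10 genes of the contractile apparatus of C. elegans muscle were followed across germ lines that lack 1 or both of the histone methyltransferases MES-2 and MES-4. They were chosen by gene symbol: the pharyngeal myosin heavy chain genes myo-1 and myo-2, the body wall myosin heavy chain genes myo-3 and unc-54, the paramyosin gene unc-15, the tropomyosin gene lev-11, the twitchin gene unc-22, the regulatory myosin light chain genes mlc-1 and mlc-2, and the troponin T gene tnt-2. Of the 10 genes, 8 had a probe that the annotation used here names, 1 probe each, and all 8 were among the 12895 genes tested of 16398 with a named probe. lev-11 and unc-22 were not analysed here. Since all 8 measured genes passed the filter on missing values, none was lost to it.

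The study hybridised RNA of adult germ lines, dissected from worms kept at 20 °C, to 12 two-colour arrays. On each array a mutant sample met a wild-type sample. The mes-2 group (4 arrays) set strain SS0186 against unc-4(e120), the mes-4 group (4 arrays) set strain SS0803 against N2, and the mes-2; mes-4 group (4 arrays), called the double mutant here, set strain SS0965 against unc-4(e120). The labels name no mes alleles. Wild-type and single-mutant germ lines were taken from adults that held a few fertilized embryos at most, whereas those of the double mutant were picked for good proliferation and the presence of oocytes, so genotype and this choice cannot be told apart in the double mutant. The wild-type strain also differed between mes-4 and the other 2 groups. Replicates were labelled as biological, and in every group 2 arrays had the mutant in Cy5 and the other 2 had it in Cy3. The values are the authors' log ratios, and the labels state neither their base nor their direction. They were read as log2 of mutant over wild type, and every fold given rests on that reading. A ratio carries no expression level, so neither the amount of muscle RNA in these dissections nor the presence of germline markers could be read from it, and the genes were not ranked by level.

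In muscle, myosin heavy chains assemble with paramyosin into thick filaments, and troponin and tropomyosin on the actin thin filaments make contraction depend on calcium. Body wall thick filaments carry the myo-3 product in their centre and the unc-54 product along their arms, while the pharynx uses the myo-1 and myo-2 products. Germ cells do not form sarcomeres. The gonadal sheath, a contractile layer of somatic cells around the germ line, also contains actin and myosin filaments. The arrays do not tell filament RNA of the sheath from that of other muscle. MES-2 belongs to the Polycomb repressive complex of the worm and places the repressive methyl mark of that complex on histone H3, and MES-4 places a methyl mark on histone H3 that is typical of transcribed genes. Both act in the germ line, where they are known for keeping X-linked and somatic genes low. The comparisons ask whether muscle filament genes, which are typical somatic genes, changed when either enzyme or both were missing.

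Within each group, the log2 ratio was tested against 0 with limma, with a term for the dye, and p-values were adjusted over all genes tested. A gene was called at an adjusted p under 0.05. The mes-2 probe fell by 2.80 in mes-2 (SE 0.20, n = 4, adjusted p = 2.24e-05) and its value in the double mutant was -2.49 (SE 0.20, n = 4, adjusted p = 1.51e-05). Signal of the mes-4 probe was at 0.63 in mes-4 germ lines (SE 0.24, n = 4, adjusted p = 0.227) and at -0.03 in the double mutant, so it did not check those labels. A single axis took 47% of the variance left by the fit. At its one end lay double mutant replicates 1 and 4 with mes-4 replicate 3, and at the opposite end double mutant replicates 2 and 3.

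No muscle filament gene passed the test in a single mutant, and myo-3 alone passed it in the double mutant. In mes-2, 0 of the 8 genes were called, against 5.25% of all genes. In mes-4, 0 of 8 were called, against 3.9% of all genes. The double mutant had 1 of 8 called, in the lower direction, against 15.9% of all genes called in either direction and 6.24% called lower. At an unadjusted limma p under 0.05, 1, 1 and 2 of the 8 genes passed in mes-2, mes-4 and the double mutant, against 16.5%, 14.4% and 28.1% of all genes. The median log2 ratio of the 8 genes was -0.15 in mes-2, -0.11 in mes-4 and -0.05 in the double mutant, beside medians of all genes between -0.003 and 0.005. Of the 8 fitted values, 7 lay below 0 in mes-2, 6 in mes-4 and 4 in the double mutant. No filament gene was called higher in any of the 3 mutants. Fitted values of the 8 genes ran from -0.33 to 0.05 in mes-2, from -0.48 to 0.02 in mes-4 and from -0.82 to 0.10 in the double mutant, while the 5th and 95th percentiles of all genes were -0.41 and 0.65, -0.46 and 0.46, and -0.61 and 0.81.

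**Figure D1:**
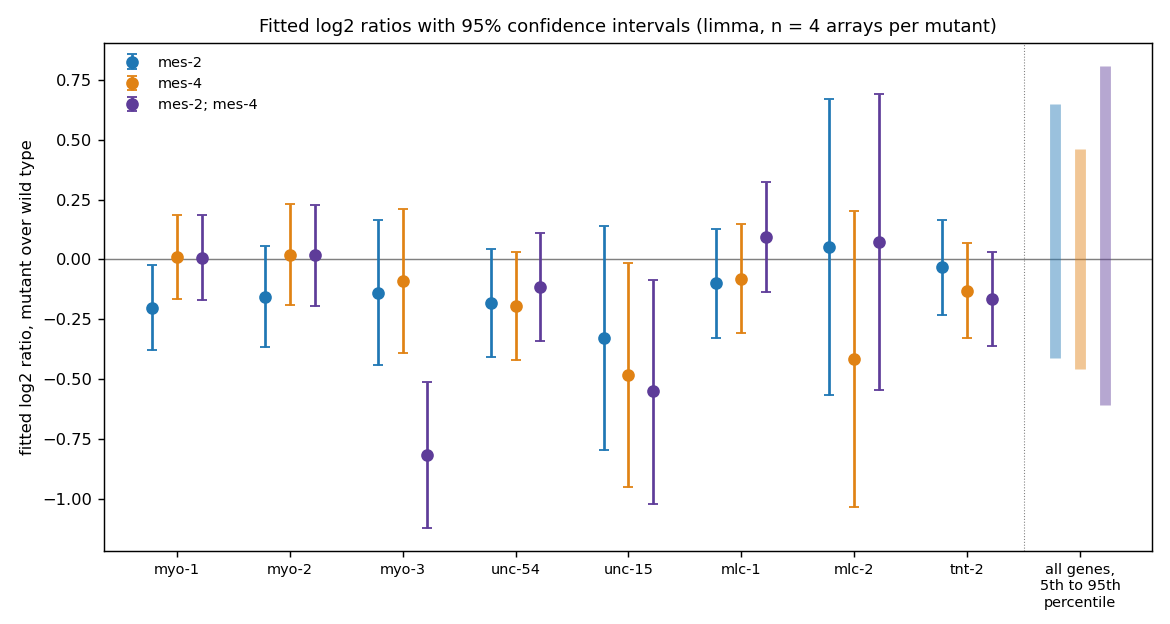
Fitted log2 ratios of mutant over wild type (vertical axis) for the 8 measured filament genes, with 95% confidence intervals from limma and 4 arrays per mutant. The shaded bars at the right span the 5th to 95th percentile of all genes tested in each mutant. The double mutant value of myo-3, at -0.82, lies below the bar of its mutant and is the 1 value called.

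myo-3 encodes myosin heavy chain A, which body wall muscle needs to start its thick filaments. Its log2 ratio in the double mutant was -0.93, -0.31, -1.05 and -0.98 on replicates 1 to 4, a mean of -0.82 ± 0.34 (SD, n = 4). In mes-2 it was 0.11, -0.17, -0.37 and -0.13. In mes-4 it was -0.15, 0.07, -0.42 and 0.14. Of the double mutant arrays, 3 lay near -1, below every single-mutant array, and replicate 2 lay inside the single-mutant range. The fit gave a fall of 1.76-fold in the double mutant (log2 -0.82, SE 0.14, 95% confidence interval -1.12 to -0.51, adjusted p = 0.00208). In mes-2 it gave -0.14 (SE 0.14, adjusted p = 0.713) and in mes-4 -0.09 (SE 0.14, adjusted p = 0.906). The fall was seen in both dye orientations, with a mean of -0.65 on the Cy5 arrays and -0.99 on the Cy3 arrays of the double mutant. myo-3 was called in the double mutant under 21 of 22 other settings, with values from -0.99 to -0.68. The exception was a fit of the 4 double mutant arrays alone (adjusted p = 0.106, where 173 of all genes were called). Many of these settings could not move the value, since myo-3 has 1 probe and a value on every array. Nor could leaving out a mes-2 or mes-4 array, as dye was balanced within the double mutant. The count of settings is therefore no measure of robustness by itself. Bulk RNA does not tell fewer cells of a type from less RNA per cell, here or for any gene below.

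Whether myo-3 responded differently in the double mutant was tested directly. Its difference from mes-2 was -0.68 (SE 0.19, 95% confidence interval -1.11 to -0.25, adjusted p = 0.0689), against 6.2% of all genes called in that comparison. The difference from mes-4 was -0.73 (SE 0.19, 95% confidence interval -1.16 to -0.30, adjusted p = 0.104), against 1.78% of all genes called. Neither difference passed the threshold, so the fall was not shown to be particular to the double mutant, and both intervals lay below 0. Without double mutant replicate 2, the array with the smallest fall, both passed, at -0.85 (adjusted p = 0.0204) against mes-2 and -0.90 (adjusted p = 0.0369) against mes-4. Over all single arrays left out, the differences weakened to as little as -0.60 and -0.65, with limma adjusted p up to 0.186 and 0.332. A replicate block gave adjusted p = 0.0697 and 0.116. Both also passed without replicates 2 and 3 of the double mutant (-0.815 and -0.865, adjusted p = 0.0276 and 0.0348). In that setting the calls over all genes rose as well, from 799 to 1859 and from 230 to 1152. The difference from mes-2 passed without mes-4 replicate 3 (adjusted p = 0.0497). Between mes-4 and mes-2, myo-3 differed by 0.05 (SE 0.19, adjusted p = 0.978), against 1.95% of all genes called. The other 7 filament genes had differences between -0.47 and 0.49 in these 3 comparisons, and 0 of 8 passed in any of them. Over the 8 genes, the lowest adjusted p was 0.0689, 0.104 and 0.514 for the double mutant against mes-2, the double mutant against mes-4 and mes-4 against mes-2.

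Markers of tissues that a dissection can carry along were read beside this fall. On the double mutant arrays the median of the 4 gonadal sheath markers tested was -0.085, 0.005, -0.49 and 0.265 on replicates 1 to 4. Of the 4, 0 were called in any mutant. The shares of all genes called were 5.25%, 3.9% and 15.9% in mes-2, mes-4 and the double mutant. In the double mutant lim-7, a LIM homeobox gene of the sheath, had -0.24 (SE 0.08, adjusted p = 0.0794). There inx-8 had -0.25 (SE 0.09, adjusted p = 0.106), while inx-9 and fkh-6 lay above 0, at 0.095 and 0.035. The 12 per-array medians of the sheath markers ran from -0.49 to 0.265, those of the 4 pharyngeal markers that are not filament genes of the list from -0.25 to 0.28, and those of hypodermis from -0.58 to 0.20. In the double mutant 0 of the 6 pharyngeal, 0 of the 6 intestinal and 0 of the 5 hypodermal markers were called. These counts stand beside 15.9% of all genes called there. Of the 2 neuronal markers tested, snb-1, the synaptobrevin gene, rose by 0.78 there (SE 0.13, adjusted p = 0.00182). The other, unc-119, had 0.19 there and was not called (adjusted p = 0.369). In mes-4, unc-119 was called higher, at 1.57 (SE 0.12, adjusted p = 1.34e-04). The hypodermal marker rol-6 was called lower in mes-4, at -0.75 (SE 0.15, adjusted p = 0.0156). Replicate 3 of the double mutant, a Cy3 array, held the lowest value both of myo-3 and of the sheath median. Replicate 4, a Cy5 array, had myo-3 at -0.98 beside the highest sheath median, 0.265. The sheath median separated by dye over all arrays, with 0.005 to 0.265 in Cy5 and -0.49 to -0.085 in Cy3. So did the pharyngeal median, with -0.25 to 0.025 in Cy5 and 0.08 to 0.28 in Cy3. On a single array, sheath content and dye cannot be told apart in these medians. Dye was balanced within each mutant. With dye in the fit, the median value of the sheath markers was -0.08 in mes-2, -0.06 in mes-4 and -0.10 in the double mutant. The per-array medians of the germline markers ran from -0.375 to 0.22, and single markers lay outside that range. Of 6 tested, gld-1, a translational repressor of meiotic germ cells, fell by 0.30 in the double mutant (SE 0.09, adjusted p = 0.0368) and had -0.63 in mes-4 (SE 0.09, adjusted p = 0.00194), where myo-3 was at -0.09. In the double mutant pgl-1, a germ granule gene, fell by 0.38 (SE 0.09, adjusted p = 0.0112). Of the 6, 2 were called lower there, beside 6.24% of all genes. glh-1 at -0.09, puf-5 at -0.025, nos-2 at 0.04 and rme-2 at -0.58 were not called in the double mutant. The part of these tissue and germline markers in the fall of myo-3 was not tested.

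**Figure D2:**
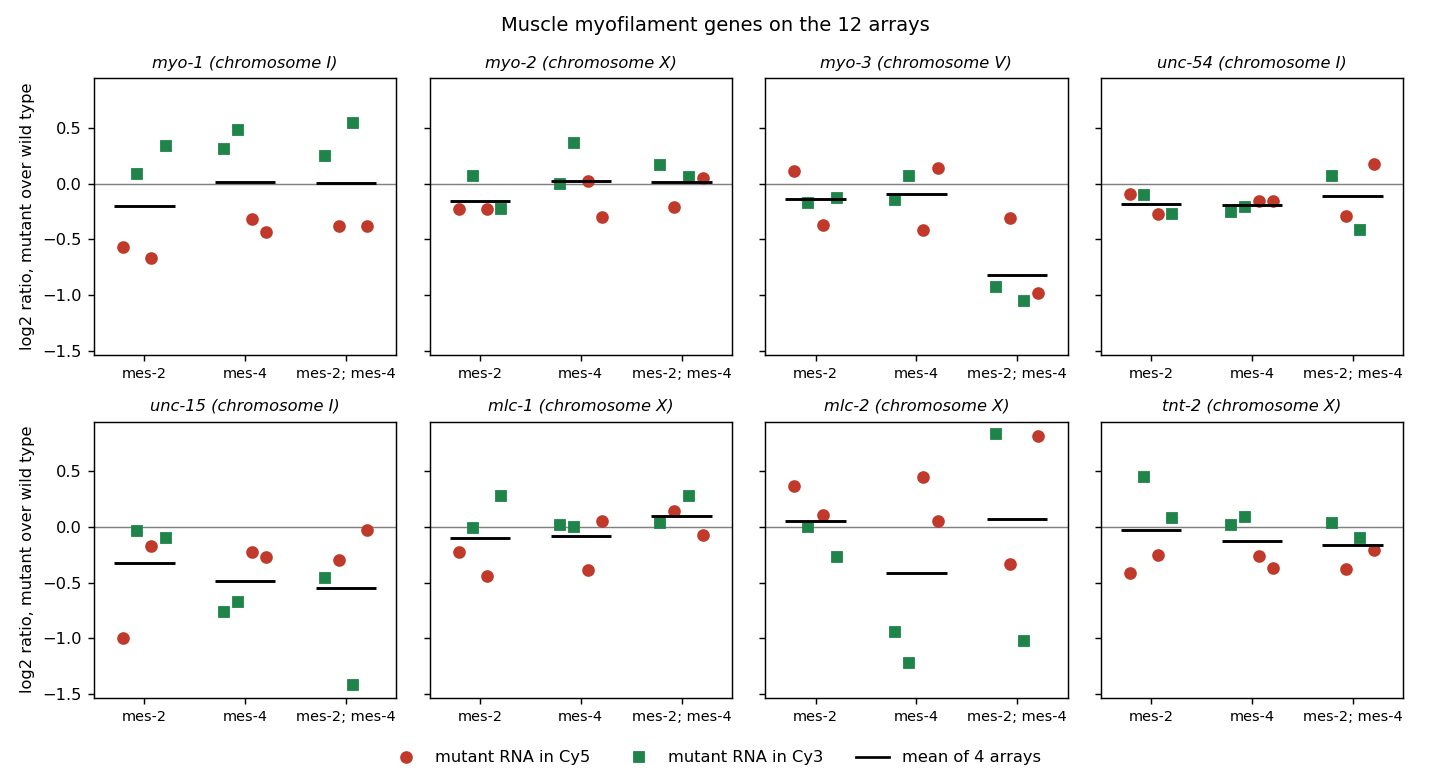
Log2 ratio of mutant over wild type (vertical axis) of each measured filament gene on each of the 12 arrays, grouped by mutant, with the dye of the mutant RNA shown by symbol and the mean of 4 arrays as a bar. In the double mutant, myo-3 lies between -1.05 and -0.31, and unc-15 lies below 0 on all 12 arrays.

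unc-54 encodes myosin heavy chain B, the major body wall myosin. Its log2 ratio was -0.09, -0.10, -0.27 and -0.27 in mes-2. The mes-4 arrays gave -0.25, -0.21, -0.16 and -0.16. Those of the double mutant gave 0.07, -0.29, -0.42 and 0.18. All 8 single-mutant arrays lay slightly below 0, within a narrow band, and the double mutant arrays fell on both sides. The fitted values were -0.18 in mes-2 (SE 0.10, adjusted p = 0.426), -0.20 in mes-4 (SE 0.10, adjusted p = 0.455) and -0.12 in the double mutant (SE 0.10, 95% confidence interval -0.34 to 0.11, adjusted p = 0.534). Its double mutant value was called without the 3 arrays at the first end of the residual axis (-0.355, adjusted p = 0.0319) and was 0.125 without the 2 arrays at its opposite end, double mutant replicates 2 and 3. myo-3 and unc-54 act in the same filaments, and in the double mutant they had values of -0.82 and -0.12.

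unc-15 encodes paramyosin, the rod protein in the core of invertebrate thick filaments. In mes-2 its log2 ratio was -1.0, -0.04, -0.17 and -0.10. In mes-4 it was -0.76, -0.67, -0.23 and -0.27. In the double mutant it was -0.46, -0.30, -1.42 and -0.03. Every one of the 12 arrays lay below 0, which held for 1 of the 8 filament genes and for 0.727% of the 11416 genes with a value on every array. The sizes were uneven: single arrays at -1.0 in mes-2 and -1.42 in the double mutant stood far below the rest of their groups. No mutant taken alone passed the threshold, with -0.33 in mes-2 (SE 0.21, adjusted p = 0.514), -0.48 in mes-4 (SE 0.21, adjusted p = 0.325) and -0.55 in the double mutant (SE 0.21, adjusted p = 0.112). Without mes-2 replicate 1 the mes-2 value was -0.03, and the double mutant value then reached an adjusted p of 0.0446. Without double mutant replicate 3 the double mutant value was -0.27. The Cy5 and Cy3 means were -0.585 and -0.07 in mes-2, -0.25 and -0.715 in mes-4, and -0.165 and -0.94 in the double mutant, all below 0.

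The mean of the 3 mutant coefficients was also tested against 0, a contrast chosen after the values of the filament genes were seen. All 8 genes had a value below 0, between -0.45 and -0.03, with a median of -0.10 beside -0.004 for all genes. Of the 8, 2 were called, both lower, against 17.7% of all genes called in either direction and 7.13% called lower. These were unc-15, at -0.45 (SE 0.12, 95% confidence interval -0.73 to -0.18, adjusted p = 0.0259), and myo-3, at -0.35 (SE 0.08, adjusted p = 0.0108). Both genes lay below 0 in all 3 mutants. For myo-3 the average rests largely on the double mutant, at -0.82 beside -0.14 in mes-2 and -0.09 in mes-4. For unc-15 the values were -0.33, -0.48 and -0.55 in mes-2, mes-4 and the double mutant. Its mes-2 value was -0.03 without mes-2 replicate 1. unc-15 kept its call under 18 of 21 other settings and lost it without mes-4 replicate 1 (-0.435, adjusted p = 0.065), without mes-4 replicate 2 (-0.446, adjusted p = 0.0573) and without replicates 2 and 3 of the double mutant (-0.352, adjusted p = 0.0631). myo-3 kept its call under 20 of 21 and lost it without the 3 arrays at the first end of the residual axis (-0.254, adjusted p = 0.0525). unc-54 had -0.16 (SE 0.06, adjusted p = 0.0831), with 10 of 12 arrays below 0.

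Neither pharyngeal heavy chain gene was called in a mutant, and myo-1 moved with the dye. It encodes myosin heavy chain D. Its log2 ratio was -0.57, 0.09, -0.67 and 0.34 in mes-2. The mes-4 arrays gave 0.31, 0.48, -0.32 and -0.43. Those of the double mutant gave 0.25, -0.38, 0.54 and -0.38. All 6 arrays with mutant RNA in Cy5 lay below 0, from -0.67 to -0.32, and all 6 with mutant RNA in Cy3 lay above 0, from 0.09 to 0.54. The dye term of myo-1, Cy5 minus Cy3 arrays, was -0.79 (SE 0.09, adjusted p = 4.37e-04). With dye in the fit, myo-1 had -0.20 in mes-2 (SE 0.08, adjusted p = 0.224), 0.01 in mes-4 (SE 0.08, adjusted p = 0.993) and 0.01 in the double mutant (SE 0.08, adjusted p = 0.971).

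myo-2 encodes myosin heavy chain C, the other pharyngeal heavy chain. In mes-2 its log2 ratio was -0.23, 0.07, -0.23 and -0.23. On the mes-4 arrays it was 0.00, 0.36, 0.02 and -0.30. On those of the double mutant it was 0.17, -0.21, 0.06 and 0.05. The 3 groups overlapped, and the fitted values were -0.16 in mes-2 (SE 0.10, adjusted p = 0.485), 0.02 in mes-4 (SE 0.10, adjusted p = 0.981) and 0.02 in the double mutant (SE 0.10, 95% confidence interval -0.19 to 0.23, adjusted p = 0.938).

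tnt-2 encodes a troponin T, the subunit that ties troponin to tropomyosin. In mes-2 its log2 ratio was -0.41, 0.45, -0.25 and 0.08. On the mes-4 arrays it was 0.02, 0.09, -0.26 and -0.37. On those of the double mutant it was 0.03, -0.38, -0.10 and -0.21. Here too the arrays separated by dye: the 6 Cy5 arrays ran from -0.41 to -0.21 and the 6 Cy3 arrays from -0.10 to 0.45. The dye term was -0.41 (SE 0.10, adjusted p = 0.0136), and the fitted values were -0.03, -0.13 and -0.17 in mes-2, mes-4 and the double mutant (SE 0.09 each, lowest adjusted p = 0.273). The dye term was called for 2 of the 8 filament genes, myo-1 and tnt-2, against 32.0% of all genes. For these 2 genes the Cy5 and Cy3 arrays did not overlap, against 15.1% of genes with a value on every array, and for myo-1 they lay on opposite sides of 0, against 7.92%.

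**Figure D3:**
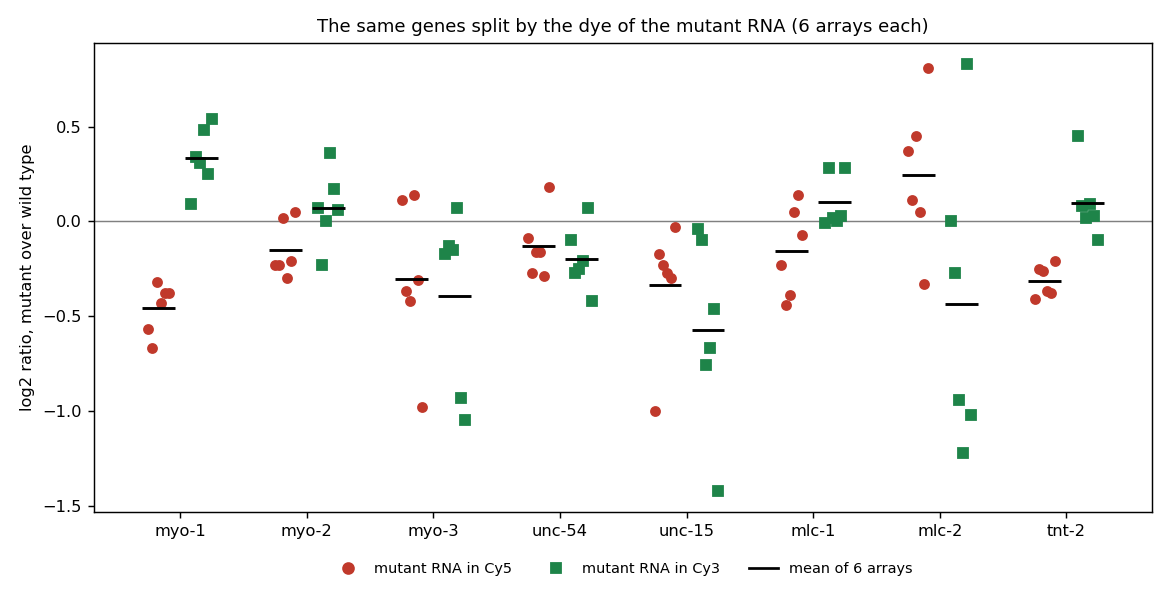
Log2 ratio of mutant over wild type (vertical axis) of each filament gene, with the 12 arrays split by the dye of the mutant RNA, 6 arrays each, and the mean of 6 arrays as a bar. The symbols of myo-1 and of tnt-2 form separate groups by dye, those of myo-1 on either side of 0.

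mlc-1 and mlc-2 encode regulatory myosin light chains with closely similar sequences. They are neighbours on the X chromosome, with 0 annotated protein-coding genes between them, and array probes can cross-hybridise between such copies. mlc-1 had log2 ratios of -0.23, -0.01, -0.44 and 0.28 in mes-2. In mes-4 it had 0.02, 0.00, -0.39 and 0.05. The double mutant arrays gave 0.03, 0.14, 0.28 and -0.07. Most arrays lay near 0, and the fitted values of -0.10, -0.08 and 0.10 (SE 0.10 each, adjusted p from 0.634 to 0.877) were within the spread between replicates.

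mlc-2 was the most variable of the 8 genes from array to array. In mes-2 its log2 ratio was 0.37, 0.00, 0.11 and -0.27. In mes-4 it was -0.94, -1.22, 0.45 and 0.05. In the double mutant it was 0.83, -0.33, -1.02 and 0.81. Its 12 values spanned 2.05, against 0.72 for mlc-1, and its residual SD lay at percentile 90.3 of all genes. The fitted values were 0.05 in mes-2, -0.42 in mes-4 and 0.07 in the double mutant (SE 0.28 each, adjusted p = 0.963, 0.624 and 0.915), with a double mutant interval from -0.55 to 0.69. mlc-2 minus mlc-1 ran from -1.30 to 0.88 over the arrays, so the signals of the neighbouring genes were far apart on several of them.

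Part of the spread of mlc-2 lay on the 5 arrays at the ends of the residual axis. Of its low values, -1.02 lay on double mutant replicate 3, which is among them. The values of -0.94 and -1.22 lay on mes-4 replicates 1 and 2, outside them. mlc-2 was highest on mes-4 replicate 3 and on replicates 1 and 4 of the double mutant, at 0.45, 0.83 and 0.81, and it was -0.33 and -1.02 on double mutant replicates 2 and 3. Without the first 3 of these arrays, mlc-2 was called lower in the double mutant (-0.675, adjusted p = 0.0299) and in mes-4 (-0.59, adjusted p = 0.0397). Without double mutant replicates 2 and 3 it was called higher in the double mutant (0.82, adjusted p = 0.0453). Its direction there was therefore not settled by these arrays. Intestinal markers were also very low on the mes-4 arrays where mlc-2 was lowest: their median was -1.48 and -1.565 on mes-4 replicates 1 and 2, and -0.33 and -0.215 on replicates 3 and 4. On double mutant replicate 3, where mlc-2 was -1.02, the intestinal median was -0.22. Of the 6 intestinal markers tested, 0 were called in any mutant. Among all genes, 5.25%, 3.9% and 15.9% were called in mes-2, mes-4 and the double mutant. The part of the intestinal markers in the values of mlc-2 was not tested. Replicates 1 and 2 of mes-4 were also its Cy3 arrays, with a mlc-2 mean of -1.08 against 0.25 on the Cy5 arrays.

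**Figure D4:**
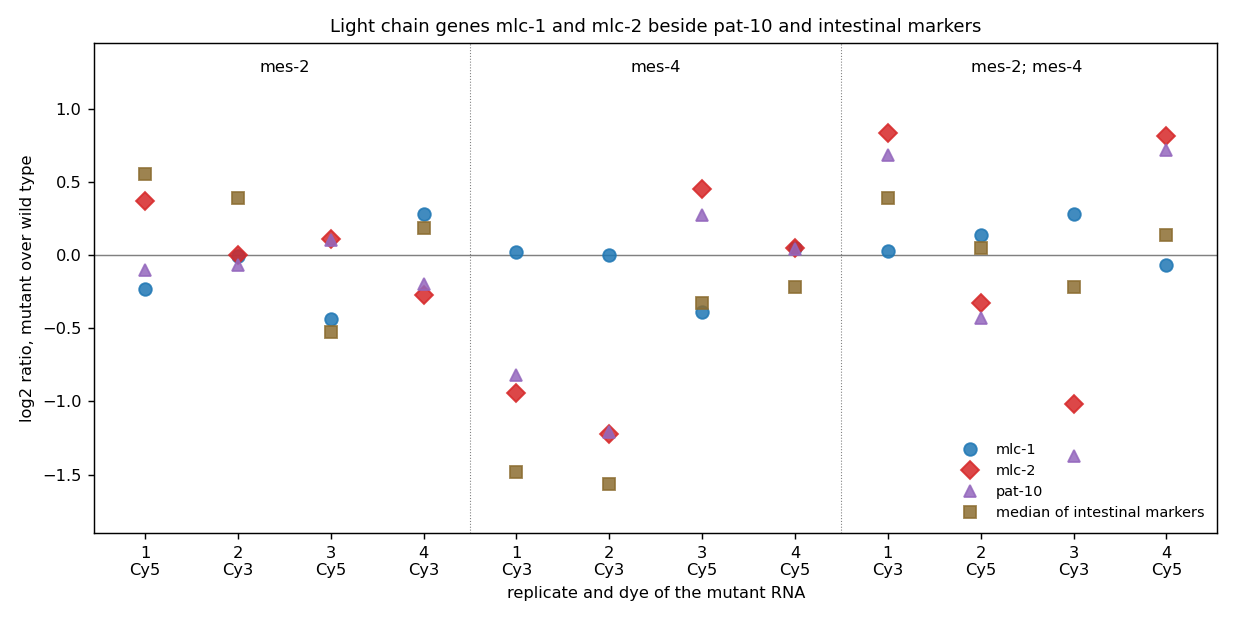
Log2 ratio of mutant over wild type (vertical axis) of mlc-1, mlc-2 and pat-10 and the median of the intestinal markers on each array, labelled by replicate and by the dye of the mutant RNA. mlc-2 and pat-10 move side by side from -1.22 to 0.83 and from -1.37 to 0.72, while mlc-1 stays between -0.44 and 0.28. pat-10 is drawn because it ran like mlc-2 on these same arrays.

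Genes whose 12 values ran most like those of a filament gene were looked up among the 11416 genes with a value on every array. The arrays share dye, wild-type strains and the residual axis, so the correlations describe these arrays. For mlc-2 the nearest were vha-6, an intestinal vacuolar ATPase subunit gene (Pearson r = 0.972, n = 12 arrays), pat-10, the body wall troponin C gene (r = 0.969), mesp-1, mtq-2 and agt-1. pat-10 had -0.82, -1.21, 0.27 and 0.04 in mes-4 and 0.68, -0.43, -1.37 and 0.72 in the double mutant, nearly the course of mlc-2. That likeness is what chose it from all genes, and vha-6, an intestinal gene, ran as closely. Among the filament genes, unc-54 was nearest to mlc-2 (r = 0.774), and mlc-1 ran the other way (r = -0.462). For unc-15 the nearest were mdh-1 (r = 0.909), pri-1, spp-15, sod-3 and cec-5. For myo-3 they were rec-8, a meiotic cohesin gene (r = 0.95), twk-18, a potassium channel gene of body wall muscle (r = 0.944), elpc-2, fars-3 and ctf-4. Their values in the double mutant, from -1.71 for elpc-2 to -0.59 for twk-18 with rec-8 at -1.27, were part of what chose them. The median of the 8 filament genes ran most like ace-2, an acetylcholinesterase gene (r = 0.891), str-226, best-15, gcy-3 and col-142. The filament genes did not run as one group, since the correlation of single genes with that median ranged from -0.07 for myo-3 to 0.741 for tnt-2.

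Of the 8 genes, 4 lie on the X chromosome: myo-2, mlc-1, mlc-2 and tnt-2. None of these 4 was called higher in mes-4, against 11.4% of X-linked genes tested, or in the double mutant, against 21.1%. Their fitted values in the double mutant were 0.02, 0.10, 0.07 and -0.17. Of the other 4, myo-1, unc-54 and unc-15 lie on chromosome I and myo-3 on chromosome V.

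Further genes of the sarcomere were read beside the 8. Of 28 other myofilament gene names listed (actins, troponins, further light chains, thick filament and M-line genes), 18 were tested. None was called in mes-2 or mes-4, and 1 rose and 1 fell in the double mutant, 2 of 18 beside 15.9% of all genes. unc-78, which encodes an actin-interacting protein that helps cofilin take actin filaments apart, rose by 1.88 there (SE 0.38, adjusted p = 0.00637), with 0.55, 2.97, 2.22 and 1.76 on its arrays. mup-2, a troponin T gene needed in body wall muscle and the gonadal sheath, fell by 0.48 (SE 0.15, adjusted p = 0.0499), with -0.35, -0.61, -0.91 and -0.05. unc-78 lies on the X chromosome and acts on actin in many cells, so it is not a sarcomere gene alone. The list's median was -0.15, -0.09 and -0.08 in the 3 mutants. The highest and lowest values that were not called were 1.14 for the myosin chaperone gene unc-45 (SE 0.44, n = 3, adjusted p = 0.214) and -0.57 for the troponin I gene unc-27 (SE 0.34, adjusted p = 0.47) in mes-2. In mes-4 they were 0.75 for unc-78 (SE 0.38, adjusted p = 0.429) and -0.81 for unc-27 (SE 0.34, adjusted p = 0.304).

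Genes of muscle attachment, which anchor filaments to the membrane, were also counted. Of 15 listed, 9 were tested, and 1 was called: pat-6, the parvin gene of the integrin complex, rose by 0.48 in the double mutant (SE 0.10, adjusted p = 0.00609), with 0.45, 0.41, 0.21 and 0.85. This 1 of 9 stands beside 15.9% of all genes in the double mutant, and 0 of 9 beside 5.25% in mes-2 and 3.9% in mes-4. unc-112, a kindlin gene, had the highest value of the list in mes-2 and mes-4, 0.50 and 0.57 (SE 0.28 each, adjusted p = 0.44 and 0.41). Its lowest values were -0.04 for the integrin alpha gene pat-2 in mes-2 and -0.08 for unc-97 in mes-4. Of 13 genes of muscle excitation and calcium handling, 6 were tested and 0 called in any of the 3 mutants, beside the same shares of all genes. Their extremes were the ryanodine receptor gene unc-68, at 0.77 in mes-2, 0.84 in mes-4 and -0.22 in the double mutant (SE 0.28, adjusted p = 0.181, 0.154 and 0.702), the dystrobrevin gene dyb-1, at -0.35 in mes-2 and -0.36 in mes-4, and the acetylcholine receptor gene unc-63, at 0.33 in the double mutant (n = 3).

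Of 6 transcription factor genes of muscle and pharynx, 5 were tested. In mes-2 1 of the 5 was called, tbx-2, beside 5.25% of all genes. In mes-4 and the double mutant 0 of 5 were called, beside 3.9% and 15.9%. The T-box gene tbx-2, which acts in pharyngeal muscle, had 1.54, 2.63, 1.49 and 0.86 on the mes-2 arrays, a fitted rise of 1.63 (SE 0.25, adjusted p = 0.00343). All its mes-2 arrays but replicate 4 lay above every other array of the gene. It had -0.20 in mes-4 and 0.07 in the double mutant, and the differences were themselves called: -1.83 for mes-4 minus mes-2 (adjusted p = 0.027) and -1.56 in the double mutant relative to mes-2 (adjusted p = 0.0274). The rise was thus larger in mes-2 than in either of the others. The uncalled extremes of the list were 0.15 for ceh-22 in mes-4, and 0.14 for pha-4 and -0.42 for hnd-1 in the double mutant.

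Myosins of other cells were read beside those of muscle. Of 10 non-muscle myosin genes, 8 were tested. Called were 1 in mes-2, 1 in mes-4, and 1 higher and 1 lower in the double mutant. The shares of all genes called were 5.25%, 3.9% and 15.9%. hum-7, an unconventional myosin gene, rose by 0.35 in mes-2 (SE 0.09, adjusted p = 0.0476) and fell by 0.32 in the double mutant (SE 0.09, adjusted p = 0.0353). Its arrays ran from 0.25 to 0.58 in mes-2 and from -0.44 to -0.25 in the double mutant. The difference of -0.67 was called (SE 0.13, adjusted p = 0.0113), as were 6.2% of all genes in that comparison. nmy-1, a non-muscle myosin heavy chain gene on the X chromosome, rose by 0.42 in mes-4 (SE 0.08, adjusted p = 0.014), on 4 of 4 arrays. mlc-5, an essential light chain gene, rose by 0.81 in the double mutant (SE 0.20, adjusted p = 0.0197), with 1.27, 0.46, 0.06 and 1.44, highest on the replicates 1 and 4 that the residual axis set apart.

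The same lists were read in the average of the 3 mutants, where 17.7% of all genes were called. Of the 18 other myofilament genes, mup-2 (-0.37, SE 0.09, adjusted p = 0.0113) and tni-3, a troponin I gene (-0.36, SE 0.08, adjusted p = 0.0085), were lower, and unc-78 was higher (0.81, SE 0.22, adjusted p = 0.0257). Of the 9 attachment genes, 3 were called, all higher: pat-6 at 0.35, dim-1 at 0.37 and uig-1 at 0.17 (adjusted p = 0.00122, 0.0159 and 0.043). unc-38, an acetylcholine receptor gene, was the 1 of 6 excitation genes called, at 0.21 (SE 0.06, adjusted p = 0.0373). tbx-2 was the 1 of 5 transcription factor genes called, at 0.50 (SE 0.15, adjusted p = 0.0368). Of the 8 non-muscle myosin genes, nmy-1 and mlc-5 were higher, at 0.16 and 0.38 (adjusted p = 0.0348 and 0.0453). The list medians were -0.04, 0.08, 0.09, 0.10 and 0.04 in this order, beside -0.10 for the 8 filament genes.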

How the data were processed

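RNA from dissected germ lines was compared on 12 two-colour arrays, 4 for each of 3 mutants, and samples were grouped by the labels. The deposited table holds a log ratio for every probe on each array, read here as log2 of mutant over wild type because channel 1 is the mutant per the labels. The log base, normalization, spot filter, tools and genome build are not given in the sources used here. The number of arrays, rather than a read depth, limits the precision. Between 17297 and 21879 of 22490 probes had a value on an array.

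Probes were named through the platform annotation: 17461 named 1 gene, 0 several and 5029 none, and 17371 matched the gene table, which was used for names, chromosomes and gene order. Probes of a gene were averaged. Genes with at least 3 of 4 values per group were fitted together in limma 3.58.1 (R 4.3.3), with 3 group coefficients and a dye term. Tests were two-sided with Benjamini-Hochberg adjustment over the 12895 genes, and calls were made at 0.05. The procedure was tested on simulated data. Errors are limma standard errors unless an SD is named.

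The members, the other muscle lists and the markers were chosen with earlier results of these data known. The rule named all members, mes-2 and mes-4, every called member of the other muscle lists (or the 3 highest and 3 lowest if over 5 were called in a direction), the highest and lowest value where none was called, and the 5 genes most like the members' median. Markers other than members were named after their values were seen. The average of the 3 mutants, the likeness to single members and the fit without double mutant replicates 2 and 3 were also added after the values were seen. Same-numbered arrays of different groups correlated in their deviations at r = -0.473 to 0.54, above 0.1 in 4 of 12 pairs, so the numbers do not pair the samples. Alternatives tried were no dye term, other filters on missing values, centred and scaled arrays, 1 probe per gene, the compared arrays alone, a replicate block, a robust variance prior and arrays left out.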

Additional observations from a re-analysis of the deposited data

Results flagged for a closer look

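In 24 groups of 4 arrays (8 filament genes in 3 mutants), 4 single arrays stood apart from the other 3 by more than Dixon's 95% critical value for the gap over the range. Chance gives about 1 in 20 groups. In mes-2, myo-2 had 0.07 on replicate 2, beside -0.23 on each of the other 3 arrays. In the double mutant, myo-3 had -0.31 on replicate 2, the smallest fall of its group. In mes-2, unc-15 had -1.0 on replicate 1, beside values from -0.17 to -0.04. In mes-4, mlc-1 had -0.39 on replicate 3, beside 0.00 to 0.05. The 4 values lay on 4 different arrays.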

How the results depend on the processing

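Of 657 values of 30 log2 ratios under 22 other settings, 615 kept their direction and their side of the threshold, 5 lost and 13 gained a call in the same direction, and 24 changed sign, 1 of which (mlc-2 in the double mutant) was then called. The cause of the sign changes was not tested. Many of the 657 values could not move, as each filament gene has 1 probe and a value on every array. A group's value also stays as it is when an array of another group is left out, since dye was balanced within groups. A replicate block left every call on the filament genes as it was (myo-3 in the double mutant adjusted p = 0.00362), while all called genes went to 323 in mes-4, 452 for double minus mes-2, 101 for double minus mes-4 and 115 between mes-4 and mes-2. Without the dye term they numbered 402 in mes-2, 283 in mes-4, 1300 in the double mutant, and 367, 67 and 117 in those 3 differences. Scaled arrays gave 881 in mes-4, 94 for double minus mes-4, 415 between mes-4 and mes-2, and -0.009 for myo-1 in the double mutant. With the compared arrays alone there were 173 in the double mutant and 330, 83 and 386 in the differences, and 0 filament genes in the double mutant.

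Without the 3 arrays at the first end of the residual axis, called genes numbered 1185, 1408, 1355, 353 and 668 in mes-2, mes-4 and the 3 differences, and 3813 in the average. Filament genes called were then 3 in the double mutant (myo-3, unc-54 and mlc-2, all lower) and 1 in mes-4 (mlc-2), with mlc-2 in the double mutant at -0.675, myo-2 there at -0.075, and -0.022, -0.027 and 0.059 for myo-1, myo-2 and myo-3 in mes-4. Without double mutant replicates 2 and 3, all calls were 883 in mes-4 and 1859, 1152 and 425 in the differences. Filament genes called were then 2 in the double mutant, 1 and 2 in its differences from mes-2 and mes-4, and 1 in the average, with mlc-1, myo-1 and unc-54 in the double mutant at -0.02, -0.065 and 0.125.

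Leaving out each array in turn, all calls ranged from 357 to 796 in mes-2 (main 677), 210 to 680 in mes-4 (503), 1289 to 2148 in the double mutant (2046), 474 to 834 for double minus mes-2 (799), 69 to 259 for double minus mes-4 (230), 100 to 341 between mes-4 and mes-2 (252) and 1759 to 2419 in the average (2278). The low ends were reached without mes-2 replicate 2, mes-4 replicate 1, double mutant replicate 4, mes-2 replicate 1, mes-4 replicate 2, and mes-4 replicate 1 for the last 2. Filament genes called ranged from 1 to 2 in the double mutant, 0 to 1 in each of its differences and 1 to 3 in the average. Values that changed sign were mlc-2 in mes-2 (-0.055 to 0.158) and the double mutant (-0.339 to 0.355), myo-1 in mes-4 (-0.018 to 0.046) and the double mutant (-0.043 to 0.065), myo-2 in mes-4 (-0.066 to 0.098) and the double mutant (-0.036 to 0.061), myo-3 in mes-4 (-0.167 to 0.05) and in mes-4 minus mes-2 (-0.053 to 0.19), and tnt-2 in mes-2 (-0.137 to 0.033). None of these was called.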
